A study of Homo sapiens with 8 samples.

Results

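The response of miR-17-92-overexpressing CUTLL1 cells to a γ-secretase inhibitor (GSI) was read from 4 arrays out of the 8 in the series, namely the 2 arrays labelled miRNA17-92 with GSI and the 2 labelled miRNA17-92 with DMSO. CUTLL1 is a human T-cell acute lymphoblastic leukemia (T-ALL) line described by its submitters as a T-cell lymphoma line with a rearrangement between chromosomes 7 and 9. It depends on active NOTCH1. The cells had been transduced with a lentivirus built on the pRRLsin MNDU3 backbone, which carries GFP behind a PGK promoter, and were sorted by flow cytometry before treatment. GSI-treated cells received 1 µM of the inhibitor for 2 days and control cells received DMSO. Each treatment has 1 array in each of 2 labelled sets. The study's methods name 2 independent biological experiments, and it was assumed here that the sets are these. The other 4 arrays hold cells with the empty backbone (Empty-V) under the same treatments, and they serve here to estimate the spread and to test whether the response differed between the vectors. All 4 groups share the cell line, the backbone, GFP and the sort, so the arrays cover 1 line. Whether each pool of transduced cells descends from many or few integrations is not given in the sources used here.

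NOTCH1 is a membrane receptor that γ-secretase cuts inside the membrane, which frees an intracellular domain. That domain enters the nucleus, joins the DNA-binding protein RBPJ and a Mastermind coactivator, and switches on genes such as HES1, DTX1 and PTCRA. In thymocytes the pathway drives T-lineage commitment and growth before the T-cell receptor is complete, and in T-ALL it is often active all the time. A GSI stops the cut. The miR-17-92 cluster is a polycistronic microRNA locus that lowers many transcripts through short seed matches.

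The 6 mature microRNAs of the cluster lie close together on chromosome 13 (RefSeq, GRCh38.p14, plus strand), inside the host gene MIR17HG at chr13:91347687-91354577. They are shown because the vector used for these 4 arrays carries the cluster and that of the Empty-V arrays does not. Capitals mark the seed, bases 2 to 8 from the 5′ end, and members with the same seed stand next to each other.
hsa-miR-17-5p: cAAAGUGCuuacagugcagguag
hsa-miR-20a-5p: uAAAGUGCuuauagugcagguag
hsa-miR-18a-5p: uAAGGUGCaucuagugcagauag
hsa-miR-19a-3p: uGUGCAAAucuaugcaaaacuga
hsa-miR-19b-3p: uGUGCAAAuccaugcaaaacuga
hsa-miR-92a-3p: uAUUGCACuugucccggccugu
miR-17 and miR-20a share 1 seed, miR-19a and miR-19b share another, and miR-18a and miR-92a have seeds of their own. No probe set of the annotation used here was named for MIR17HG, so the amount of the cluster was not read on these arrays.

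The deposited values are log2 signals of 21448 probe sets, of which 17709 were paired with 1 gene symbol. They ran from 1.97 to 18.49, and the median of every array lay between 5.30 and 5.36. Replicates of a group correlated at r = 0.9941 to 0.9953 across probe sets. The median gap between the 2 arrays of a group was 0.20 log2 units in both the DMSO and the GSI arrays of the miR-17-92 cells. T-cell identity genes were well above the median signal: the 11 markers averaged 11.83 and 11.86 in the DMSO arrays and 12.32 and 12.35 in the GSI arrays, and no member lay below the median signal in both treatments. Of these 11, CD2, CD5 and GATA3 were called higher with GSI, where 0.96% of all probe sets were. The means of 9 B-cell, 11 myeloid, 10 erythroid and megakaryocyte and 12 NK-cell markers lay between 4.22 and 5.04 in all 4 arrays, with 5, 8, 6 and 8 members below the median signal, and 12 epithelial and stromal markers averaged 5.29 to 5.45 with 9 below it. No member of those 5 lists was called, but with 1.57% of all probe sets called this says little for lists so short. In bulk RNA, fewer cells that express a gene and less RNA per cell cannot be told apart.

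GSI changed 336 of 21448 probe sets in miR-17-92 cells at an adjusted p under 0.05 (limma, 2 arrays against 2, all 8 arrays sharing 1 estimate of the spread), which is 1.57% of those tested. Of these, 206 were higher with GSI (0.96% of all probe sets) and 130 were lower (0.606%). The falls were the steeper ones, with a median log2 change of -1.34 against 1.11 for the rises, and the smallest change that passed was 0.76. With the set entered as a replicate block, 178 of the 336 probe sets still passed (97 higher, 81 lower) and none was added. The genes named below kept their call under that block unless another adjusted p is given for it. In all 336 the 2 GSI arrays lay on 1 side of the 2 DMSO arrays, an arrangement that 44.8% of all probe sets showed. The median change over all probe sets was 0.00.

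NOTCH1 target genes held the largest single change and many further falls. Of 25 measured members of the NOTCH1 target list, 12 fell, 1 rose and 12 did not pass, with a median log2 change of -0.95 (with the set as a block, 10 fell and 1 rose), where 0.606% of all probe sets fell. The 12 falls became 7 without the GSI array of set 1, the GSI array of set 2 or the DMSO array of set 1, and 9 without the DMSO array of set 2, while the 1 rise was lost in the first 3 of these fits. In those fits an arm is left with 1 array, which is taken to vary like the other groups. NRARP, a small ankyrin-repeat protein that feeds back to inhibit NOTCH signalling, read 10.51 and 10.24 in the DMSO arrays of sets 1 and 2 and 4.19 and 4.46 in the GSI arrays. It dropped from the upper part of the signal range to below the array median in both sets. The log2 change was -6.05 ± 0.20 (SE, adjusted p = 3.11e-06), a 66.3-fold fall and the largest change among the 336 calls. DTX1, a Deltex ubiquitin ligase that acts on NOTCH receptors, read 12.32 and 12.67 with DMSO and 7.86 and 8.55 with GSI, a change of -4.29 ± 0.30 (adjusted p = 9.76e-05). The GSI arrays of DTX1 were farther apart than its DMSO arrays, but both were far below them.

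The HES repressors, basic helix-loop-helix proteins that are the classical NOTCH targets, did not move alike. HES1 read 9.32 and 9.68 with DMSO and 6.91 and 6.69 with GSI (-2.70 ± 0.19, adjusted p = 9.76e-05). HES4 read 10.87 and 11.12 with DMSO and 8.93 and 9.18 with GSI (-1.94 ± 0.32, adjusted p = 0.0188). Both had GSI arrays well below their DMSO arrays, though HES4 lost its call when any 1 of these 4 arrays was left out. HES5 was dim, at 4.35 and 4.53 with DMSO against 4.37 and 4.50 with GSI, and its arrays overlapped. Its 95% interval ran from -0.36 to 0.35. HEY1, a relative of the HES genes, read 5.63 and 5.51 against 4.75 and 5.38 and did not pass (-0.51, interval -1.05 to 0.04).

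The promoters of HES1 and HES4 are shown because both genes fell and both hold the core of the motif that RBPJ binds, TGGGAA. The window spans 250 bases before to 50 bases after the annotated start, read 5′ to 3′ along the gene from RefSeq (GRCh38.p14), and capitals mark TGGGAA, searched on both strands (its other strand reads TTCCCA).
HES1, chr3:194135898-194136197, plus strand: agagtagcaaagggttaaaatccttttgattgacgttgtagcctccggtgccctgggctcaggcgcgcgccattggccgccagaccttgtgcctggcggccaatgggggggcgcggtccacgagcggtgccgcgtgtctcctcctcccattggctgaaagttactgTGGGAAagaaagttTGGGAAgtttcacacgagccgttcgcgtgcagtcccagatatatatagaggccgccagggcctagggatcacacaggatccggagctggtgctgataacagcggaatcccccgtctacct
HES4, chr1:1000048-1000347, minus strand: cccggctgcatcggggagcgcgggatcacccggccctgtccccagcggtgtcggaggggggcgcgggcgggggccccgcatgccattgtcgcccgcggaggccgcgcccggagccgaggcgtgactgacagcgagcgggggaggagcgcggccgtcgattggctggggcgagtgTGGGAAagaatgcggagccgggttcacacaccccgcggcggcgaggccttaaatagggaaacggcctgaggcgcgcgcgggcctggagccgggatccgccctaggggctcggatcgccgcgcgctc
HES1 holds 2 matches, which begin 84 and 70 bases before the start, and HES4 holds 1, which begins 76 bases before it. The letters were not in the same window of NRARP, PTCRA, NOTCH3, CR2, SHQ1, CD300A, TASP1, IGF1R or IL7R. The share of promoters with a match was 15.5% among 97 called-lower genes with a promoter sequence (15 genes), 21.2% among 137 called-higher genes and 22.5% among all 14250 genes tested. A match in this window is a description of the letters and was not tested against the response.

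Receptors and surface proteins on the list fell by smaller amounts than NRARP. PTCRA, which encodes the invariant chain of the pre-T-cell receptor, read 9.42 and 9.30 with DMSO and 7.29 and 7.51 with GSI (-1.96 ± 0.24, adjusted p = 0.00293). CR2, complement receptor 2, read 11.07 and 10.95 against 7.70 and 7.76 (-3.28 ± 0.16, adjusted p = 1.04e-05), and CR2 has close relatives whose transcripts could share probes. CD300A, an inhibitory receptor, read 12.74 and 12.80 against 11.12 and 10.73 (-1.85 ± 0.18, adjusted p = 0.000842). In each of these genes both GSI arrays lay more than 1 log2 unit below both DMSO arrays.

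IL7R, the receptor chain for interleukin-7, was bright and moved less. It read 16.10 and 16.02 with DMSO and 14.97 and 15.25 with GSI. The change of -0.95 ± 0.18 passed (adjusted p = 0.0335) and did not pass with the set as a block (adjusted p = 0.0846). IGF1R, the type 1 insulin-like growth factor receptor, changed by -0.97 ± 0.19 (adjusted p = 0.0423, and 0.112 with the block). SHQ1, an assembly factor of snoRNA particles, read 12.81 and 12.72 against 10.56 and 10.43 (-2.27 ± 0.20, adjusted p = 0.000431). TASP1, the protease taspase, read 13.51 and 13.22 against 12.07 and 12.16 (-1.25 ± 0.18, adjusted p = 0.0102). The groups of SHQ1 and of TASP1 did not overlap, which held for all 336 calls and for 44.8% of all probe sets.

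Among the 4 NOTCH receptors, NOTCH3 passed. It read 10.44 and 9.99 with DMSO and 8.79 and 8.83 with GSI (-1.41 ± 0.24, adjusted p = 0.0209), and lost its call without either GSI array or the DMSO array of set 1. NOTCH1 itself read 9.17 and 9.13 with DMSO and 8.07 and 7.97 with GSI, a gap much wider than its replicates. Its change of -1.13 ± 0.32 did not pass in the fit over all 8 arrays (adjusted p = 0.148), in which the Empty-V GSI arrays of NOTCH1 stood at 8.99 and 7.76. In a fit of the 4 miR-17-92 arrays alone it did (adjusted p = 0.0375), as it did without either of those Empty-V GSI arrays. NOTCH2 (-0.07, interval -0.60 to 0.46) and NOTCH4 (-0.46, interval -1.16 to 0.25) did not pass.

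Lists of the receptors and the machinery around them held 1 call, that of NOTCH3. With 1.57% of all probe sets called, a low count in lists this short says little. Of 13 receptors, ligands and fringes, 1 fell (NOTCH3) and 12 did not pass, among them MFNG, a fringe glycosyltransferase, at 0.80 ± 0.21 (adjusted p = 0.111). None of 7 genes of γ-secretase and the shedding proteases was called, with the nicastrin gene NCSTN at 0.59 ± 0.16 and the sheddase gene ADAM17 at 0.48 ± 0.22. None of 18 genes of the nuclear complex, its corepressors and its turnover was called. The acetyltransferase gene KAT2B came nearest at 0.94 ± 0.20 (adjusted p = 0.0566).

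**Figure D1:**
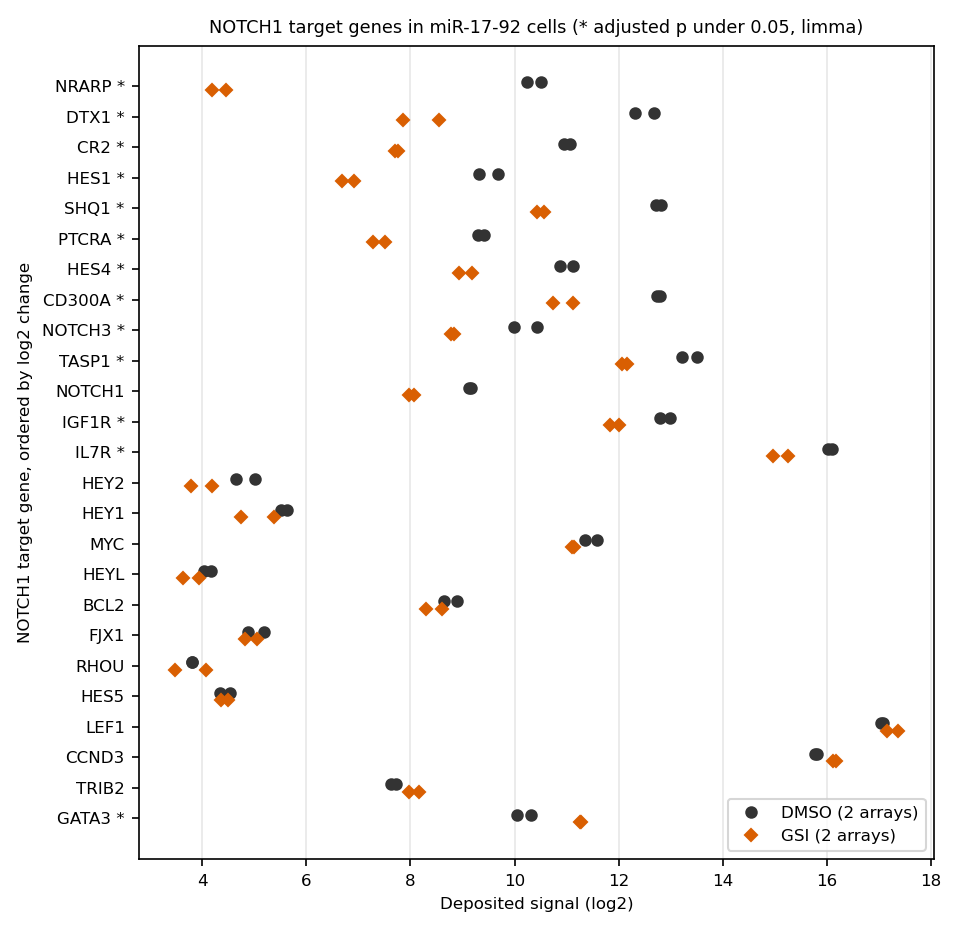
Deposited log2 signal of the 25 measured NOTCH1 target genes in the 4 arrays of miR-17-92 cells, with black circles for DMSO and orange diamonds for GSI, ordered by log2 change and marked with an asterisk where the adjusted p was under 0.05. NRARP dropped from 10.51 and 10.24 to 4.19 and 4.46, while HES5 overlapped and GATA3 rose.

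GATA3, the transcription factor of early T-cell development and the T-helper type 2 lineage, was the 1 listed target that rose. It read 10.04 and 10.32 with DMSO and 11.25 and 11.28 with GSI (1.09 ± 0.17, adjusted p = 0.0142), a call that was lost without either GSI array or the DMSO array of set 1, and with the 4 arrays alone. MYC, the transcription factor through which NOTCH1 is known to drive growth in T-ALL, read 11.35 and 11.59 with DMSO and 11.10 and 11.15 with GSI. Its GSI arrays were the lower ones, but the change of -0.35 ± 0.19 did not pass (adjusted p = 0.444, interval -0.77 to 0.08). None of the 11 measured genes of the MYC and MAX network was called, and their median change was -0.18.

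Outside the NOTCH list, several of the 15 largest falls came near that of NRARP. BMP4, a ligand of the TGF-β superfamily, read 14.44 and 14.55 with DMSO and 9.38 and 9.61 with GSI (-5.00 ± 0.20, adjusted p = 5.1e-06). PCGF5, a Polycomb group ring-finger protein, read 14.15 and 14.53 against 9.69 and 9.57 (-4.71 ± 0.18, adjusted p = 4.42e-06). MYO7B, an unconventional myosin, read 9.25 and 9.31 against 3.95 and 4.19 (-5.21 ± 0.22, adjusted p = 5.22e-06). BMP4 and PCGF5 were bright genes that stayed well above the array median with GSI, whereas MYO7B ended below it.

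MEST, an imprinted gene of the hydrolase fold, read 9.06 and 9.35 with DMSO and 4.77 and 4.67 with GSI (-4.49 ± 0.21). The kinase gene WNK2 read 10.02 and 10.08 against 5.37 and 5.79 (-4.47 ± 0.19), and RFX8, of the RFX transcription factor family, 11.14 and 11.09 against 7.45 and 7.26 (-3.76 ± 0.22). DPP6, an accessory subunit of potassium channels, was less even, at 6.56 and 6.97 with DMSO and 3.50 and 2.59 with GSI (-3.72 ± 0.33, adjusted p = 0.000432). In all 4 genes both GSI arrays were more than 2 log2 units below both DMSO arrays.

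The remaining large falls lay near -3. SMAD3, which carries TGF-β signals to the nucleus, read 10.09 and 10.05 with DMSO and 6.52 and 7.27 with GSI (-3.18 ± 0.24, adjusted p = 0.000147). APCDD1, a membrane inhibitor of WNT signalling, read 11.55 and 11.64 against 8.51 and 8.39 (-3.15 ± 0.18, adjusted p = 3.7e-05). AJAP1, an adherens junction protein, changed by -3.20 ± 0.20 and the aldehyde dehydrogenase gene ALDH3B2 by -3.08 ± 0.21. PRR5, a subunit of mTOR complex 2, changed by -2.90 ± 0.20, and its signal could include a readthrough transcript with the neighbouring gene. VEGFA, the vascular endothelial growth factor, was bright and fell evenly from 14.08 and 13.92 to 11.15 and 11.09 (-2.88 ± 0.16, adjusted p = 3.07e-05). All 15 of the largest falls still passed under the block, and 5 of them ended with a mean below the median signal.

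The 15 largest rises began with a cytokine, a chemokine receptor and a transcription factor. IL32, a proinflammatory cytokine gene of T and NK cells, read 7.86 and 8.53 with DMSO and 13.41 and 13.39 with GSI. The rise of 5.21 ± 0.23 (adjusted p = 7.03e-06) was 36.9-fold and left the 2 GSI arrays closer together than the DMSO arrays. CCR9, the receptor for the thymic chemokine CCL25, read 7.55 and 7.05 against 11.50 and 11.47 (4.19 ± 0.23, adjusted p = 3.57e-05). EGR1, an immediate early zinc-finger factor, read 6.05 and 5.84 against 9.64 and 10.00 (3.88 ± 0.24, adjusted p = 5.73e-05). In all 3 genes the lowest GSI array was more than 3 log2 units above the highest DMSO array.

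Other large rises were those of surface proteins and of the recombinase gene RAG1. CCR4 was near the bottom of the scale with DMSO, at 3.24 in both sets, and read 6.65 and 6.17 with GSI (3.17 ± 0.19, adjusted p = 4.9e-05). CD48, a ligand of the CD2 family, read 4.86 and 5.36 against 8.46 and 8.20 (3.22 ± 0.21, adjusted p = 6.25e-05). CXCR6, the receptor for CXCL16, read 5.96 and 5.62 against 8.47 and 8.19 (2.54 ± 0.24). CCR4 moved from below the array medians to above them in both sets, and CD48 started close to them. CD52, a small glycoprotein of lymphocyte membranes, read 8.62 and 9.05 against 12.07 and 11.64 (3.02 ± 0.24). PTPRC, which encodes the phosphatase CD45, was already bright at 11.79 and 11.58 and reached 14.16 and 14.17 (2.48 ± 0.18, adjusted p = 9.76e-05). RAG1, a subunit of the recombinase that assembles antigen receptor genes, read 11.28 and 11.10 against 13.58 and 13.71 (2.46 ± 0.16, adjusted p = 7.28e-05). PTPRC and RAG1 rose by amounts much larger than the gaps between their replicates.

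The other large rises were regulators and signalling proteins. The transcription factor gene SOX5 read 5.74 and 5.97 with DMSO and 9.06 and 8.88 with GSI (3.12 ± 0.19), and ARID5B, a chromatin factor gene, 7.78 and 7.83 against 10.32 and 10.55 (2.63 ± 0.20). CRIM1, a membrane protein with cysteine-rich repeats, changed by 3.07 ± 0.17, IER3, an early response gene, by 2.80 ± 0.19, and the cAMP phosphodiesterase gene PDE4D by 2.75 ± 0.19. DOK2, an adaptor below receptor kinases, was dim and uneven, with 4.48 and 3.72 with DMSO and 7.42 and 6.01 with GSI. Its change of 2.62 ± 0.53 passed at an adjusted p of 0.0457 and did not pass with the set as a block (adjusted p = 0.0738). The other 14 of the 15 largest rises passed under the block too.

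**Figure D2:**
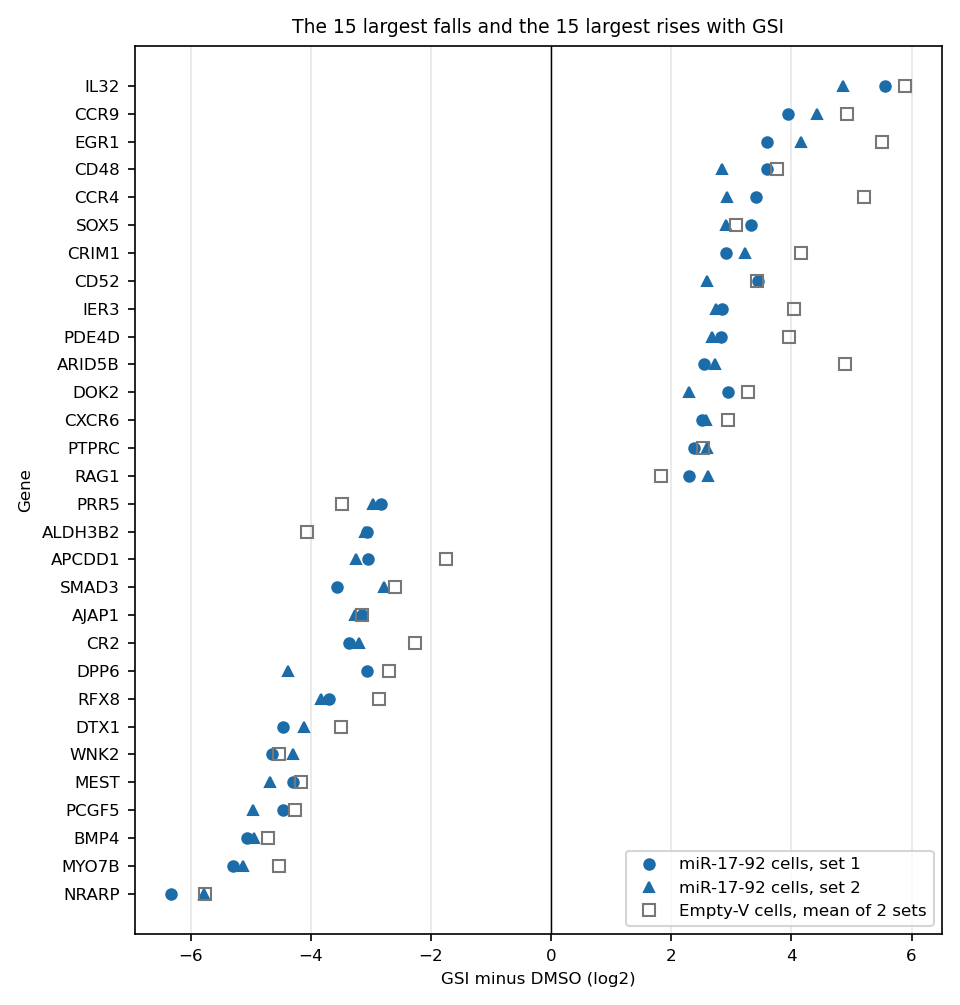
GSI minus DMSO in log2 for the 15 genes with the largest falls and the 15 with the largest rises in miR-17-92 cells, with blue circles for set 1, blue triangles for set 2 and open grey squares for the mean change in Empty-V cells. The changes ran from NRARP (-6.32 and -5.78) to IL32 (5.55 and 4.86). Both sets lay on the same side of 0 for all 30 genes, which follows from choosing genes whose GSI and DMSO arrays did not overlap.

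Genes of T-cell maturation and the T-cell surface were called mostly upward. Of 39 measured, 12 rose, 1 fell (IL7R) and 26 did not pass, with a median change of 0.33 (9 rose under the block), where 0.96% of all probe sets rose. Beside CCR9, CD48, CCR4, CD52 and PTPRC, CD2, an adhesion receptor, read 8.38 and 8.04 with DMSO and 9.57 and 9.85 with GSI (1.50 ± 0.20, adjusted p = 0.00494). CCR7, the homing receptor of naive T cells, read 7.12 and 7.13 against 8.83 and 8.57 (1.58 ± 0.16, adjusted p = 0.00105). CD38, an ectoenzyme, was bright at 14.31 and 14.24 and reached 15.64 and 15.61 (1.35 ± 0.16). None of these 3 had overlapping groups, which held for all 336 calls and for 44.8% of all probe sets. The tetraspanin gene CD53 changed by 1.49 ± 0.16. The egress receptor gene S1PR1 (1.11 ± 0.20), the activation marker gene CD69 (1.11 ± 0.19) and CD5, an inhibitory receptor gene (0.83 ± 0.17), passed at adjusted p of 0.0279, 0.0222 and 0.049 and did not pass with the block (0.0682, 0.0642 and 0.135).

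Immature thymocyte genes moved in both directions. There were 3 risers and 1 fall among 18 measured, and 14 did not pass, where 0.96% of all probe sets rose and 0.606% fell. The block left 2 of the rises and the fall. RAG1 rose as above. CD1C, a lipid-presenting molecule of cortical thymocytes, went from 13.44 and 13.53 to 14.81 and 14.79 (1.32 ± 0.15, adjusted p = 0.00218). DNTT, the terminal transferase, changed by 1.08 ± 0.18 (adjusted p = 0.0221, and 0.0657 with the block). PTCRA was the 1 that fell.

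Of 40 T-cell transcription factors, 6 rose, 1 fell and 33 did not pass, where 0.96% of all probe sets rose and 0.606% fell. The median was 0.06, and under the block 6 rose and 0 fell. TOX, a thymic HMG-box factor, was bright and even, at 14.07 and 14.08 with DMSO and 15.42 and 15.41 with GSI (1.34 ± 0.16, adjusted p = 0.00218). TOX2 read 3.63 and 3.34 against 5.27 and 5.74 (2.02 ± 0.25, adjusted p = 0.00307). ID3, an inhibitor of E proteins, read 7.82 and 8.01 against 9.63 and 9.69 (1.75 ± 0.17, adjusted p = 0.000799). The Ikaros family gene IKZF3 changed by 1.09 ± 0.17, and GATA3 and ARID5B rose as given above. ID1, a relative of ID3, went the other way (-1.41 ± 0.24, adjusted p = 0.0222, and 0.0531 with the block).

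T-cell receptor signalling genes held several risers: 7 of 32 rose, none fell and 25 did not pass, with a median of 0.45. Of the 32, 22 stood above 0 and 10 below it. Over all probe sets 0.96% rose and 0.606% fell, so the absence of falls in a list this short says little. Under the block 2 rose, and without any 1 of the 4 miR-17-92 arrays 1 rose. RASGRP1, the exchange factor that couples the receptor to RAS, read 12.12 and 12.06 with DMSO and 14.57 and 14.38 with GSI (2.39 ± 0.19, adjusted p = 0.000182). RHOH, a GTPase needed for receptor signalling, changed by 1.07 ± 0.15 (adjusted p = 0.00888). The other 5 were the adaptor genes LCP2 (1.02) and LAT (0.96), the phosphatase family gene UBASH3A (0.99), the kinase gene PRKCQ (0.97) and the ubiquitin ligase gene CBLB (0.80). Their adjusted p with the block were 0.0637, 0.0681, 0.0604, 0.0682 and 0.133.

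Immediate early and ERK feedback genes held risers and no called fall. Over all probe sets 0.96% were called higher and 0.606% lower, so the absence of falls in lists this short says little. Of 24 immediate early genes, 5 rose (3 under the block): EGR1, IER3, ZFP36, CD69 and JUN. Without the GSI array of set 1 there were 2, without the GSI array of set 2 or the DMSO array of set 1 there were 3, and without the DMSO array of set 2 there were 4. ZFP36, which destabilises AU-rich transcripts, read 7.02 and 7.45 with DMSO and 8.81 and 8.62 with GSI (1.48 ± 0.19, adjusted p = 0.00476). JUN, an AP-1 subunit, was dim (3.24 and 3.77 against 4.39 and 4.73) and passed narrowly (1.06 ± 0.21, adjusted p = 0.0468, and 0.0705 with the block). Of 16 ERK feedback genes 3 rose (2 under the block). DUSP6, a phosphatase of ERK, read 4.53 and 4.80 against 6.86 and 7.05 (2.29 ± 0.22, adjusted p = 0.000845). ETV5, an ETS factor induced by ERK, read 4.73 and 4.44 against 6.97 and 6.60 (2.20 ± 0.20, adjusted p = 0.000512). Both moved from below the array medians to above them. SPRY1, a Sprouty inhibitor, changed by 0.83 ± 0.16 (adjusted p = 0.0381, and 0.116 with the block).

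Lists of cytokine and inflammatory signalling genes held 1 to 3 calls each, where 0.96% of all probe sets were called higher and 0.606% lower. Of 19 NF-kB subunits, inhibitors and targets, 3 rose (1 under the block): IL32, the lymphotoxin beta gene LTB (1.49 ± 0.29, adjusted p = 0.0374, and 0.0729 with the block) and the deubiquitinase gene TNFAIP3 (0.97 ± 0.16, adjusted p = 0.016, and 0.0633 with the block). The median of that list was -0.04, so the called members were not typical of it. RELA, the p65 subunit, stood at -0.10 (interval -0.49 to 0.30). Of 27 cytokine receptor, JAK, STAT and SOCS genes, 1 was called (IL7R). Of 32 interferon-stimulated genes, 1 was called: IRF9, a subunit of the interferon-activated factor ISGF3 (1.14 ± 0.16, adjusted p = 0.0076).

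Several lists of growth and biosynthesis genes held no call. Over all probe sets 1.57% were called, so the absence of calls in any 1 list of this size says little. None of 40 ribosome biogenesis genes passed, although 34 of the 40 were below 0 and the median was -0.26. Over all probe sets, 0.606% were called lower. NPM1, the nucleolar chaperone nucleophosmin, was the nearest at -0.72 ± 0.18 (adjusted p = 0.0967). None of 34 cytosolic ribosomal proteins (median -0.01), 55 mitochondrial ribosomal proteins (median -0.12), 44 respiratory chain and ATP synthase subunits (median 0.05) or 28 proteasome subunits (median -0.08) was called. MRPL3, of the mitochondrial ribosome, read 12.20 and 12.14 with DMSO and 11.43 and 11.44 with GSI and missed the threshold narrowly (adjusted p = 0.0506). None of 25 nucleotide and polyamine synthesis genes passed (median -0.30), with PAICS, of purine synthesis, at -0.62 ± 0.15. None of 20 heat shock proteins and chaperonins passed either (median -0.34), with TRAP1, a mitochondrial chaperone, at -0.80 ± 0.19.

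Metabolic genes that did pass were mostly single members of their lists, where 0.96% of all probe sets were called higher and 0.606% lower. In the serine, folate and amino acid response list, 3 of 25 fell (2 under the block) and the median was -0.52. SLC7A11, the cystine transporter, read 12.98 and 12.69 with DMSO and 11.14 and 11.19 with GSI (-1.67 ± 0.19, adjusted p = 0.00167). VLDLR, a lipoprotein receptor, changed by -1.04 ± 0.16 (adjusted p = 0.0119), and PSAT1, of serine synthesis, by -0.89 ± 0.16 (adjusted p = 0.0289, and 0.0829 with the block). The isoleucyl-tRNA synthetase gene IARS1 was the 1 called of 16 synthetases (-0.79 ± 0.16, adjusted p = 0.0482, and 0.14 with the block).

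In the same way the glucose transporter gene SLC2A3 was the 1 called of 21 glycolysis genes (1.04 ± 0.19, adjusted p = 0.0334, and 0.0758 with the block). Its signal could include that of its near-identical copy SLC2A14, and the probes were not checked for this. MVD, of the mevalonate pathway, was the 1 called of 19 cholesterol synthesis genes (-1.08 ± 0.18, adjusted p = 0.0186, and 0.0595 with the block). TFRC, the transferrin receptor, read 13.72 and 13.55 with DMSO and 12.54 and 12.69 with GSI and was the 1 called among 20 housekeeping genes (-1.02 ± 0.16, adjusted p = 0.0147, and 0.0555 with the block).

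Cell cycle lists held 1 called gene. With 1.57% of all probe sets called, a low count in lists of this size says little. CCNG2, an unconventional cyclin linked to cell cycle arrest and also a reported target of the cluster, read 10.61 and 10.65 with DMSO and 11.89 and 12.01 with GSI (1.32 ± 0.16, adjusted p = 0.00243). None of 38 DNA replication genes (median -0.14), 42 mitosis genes (median 0.01) or 20 G1 cyclins, kinases and E2F factors (median 0.08) passed. GINS2, of the replicative helicase, stood at -0.82 ± 0.20 (adjusted p = 0.0943) and E2F8, an atypical E2F repressor, at 0.70 ± 0.16 (adjusted p = 0.0726). Other cycle regulators that did not pass were E2F3 (-0.51, interval -1.03 to 0.01), E2F6 (0.23, interval -0.20 to 0.65), CCNE1 (0.04, interval -0.50 to 0.57), RBL1 (0.12, interval -0.31 to 0.54), FOXM1 (0.02, interval -0.34 to 0.38) and CDKN2A (0.39, interval -0.20 to 0.98).

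Cell death and stress genes moved both ways, where 0.96% of all probe sets were called higher and 0.606% lower. CASP8, the initiator caspase of death receptors, changed by 0.96 ± 0.16 (adjusted p = 0.0182), the antiapoptotic gene BCL2L1 by 0.88 ± 0.16 (adjusted p = 0.0279) and the proapoptotic gene PMAIP1, which encodes NOXA, by -1.05 ± 0.20 (adjusted p = 0.0374). With the block their adjusted p were 0.0637, 0.0912 and 0.0843. The other 23 of the 26 genes in that list did not pass. Of 21 p53 response genes, GADD45A, a stress sensor, was called and went from 9.89 and 9.94 to 8.40 and 8.13 (-1.65 ± 0.18, adjusted p = 0.00132). CDKN1A, which encodes the inhibitor p21, did not pass (-0.80 ± 0.21, adjusted p = 0.124).

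Of 43 reported targets of the cluster, 2 rose (CCNG2 and TNFAIP3), 1 fell (VEGFA) and 40 did not pass, with a median of 0.06 against 0.00 over all probe sets. Under the block 1 rose and 1 fell. Over all probe sets, 0.96% were called higher and 0.606% lower without the block. None of 15 microRNA processing and silencing genes was called, with AGO2, an Argonaute protein gene, at -0.51 ± 0.16. Among further regulators named whatever their values, the β-catenin gene CTNNB1 (0.03, interval -0.38 to 0.43), GATA1 (0.06, interval -0.80 to 0.91), GATA2 (-0.22, interval -0.91 to 0.48), TCF4 (-0.58, interval -1.11 to -0.05), ETS1 (0.38, interval 0.02 to 0.74) and NFE2L2 (-0.46, interval -0.90 to -0.01) did not pass after adjustment. The lists of 5 GIMAP GTPases, 17 MHC class I and antigen processing genes and 26 lysosome and autophagy genes held no called member.

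The Empty-V cells gave the same contrast on arrays that are not shared with the miR-17-92 cells. There, 1601 probe sets passed (7.46%), with 816 higher (3.8%) and 785 lower (3.66%), against 825 calls with the set as a block. Of the 336 calls in miR-17-92 cells, 267 (79.5%) were also called in Empty-V cells, which is 16.7% of the 1601, and 264 of these had the same direction. The 3 called in opposite directions were MCC, NUDT6 and OR52B2, and NUDT6 and OR52B2 were chosen after their values were seen. NUDT6 changed by 1.08 in miR-17-92 cells and -0.75 in Empty-V cells (adjusted p of the difference 0.0806), with an adjusted p of 0.0246 in miR-17-92 cells and 0.0559 with the block. OR52B2 changed by 0.95 and -0.82 (adjusted p of the difference 0.0767), with 0.0323 in miR-17-92 cells and 0.0899 with the block. Of the 336, 320 had the same sign in both vectors, and in 173 of those the change was larger in Empty-V cells. Across all probe sets the 2 responses correlated at r = 0.48, a description over 21448 points that come from 8 arrays normalized together.

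All 30 of the largest changes were also called in Empty-V cells. Of the 15 largest falls, 12 were steeper in miR-17-92 than in Empty-V cells, and of the 15 largest rises, 2 were. No difference passed for any of the 30. They were picked by their size in miR-17-92 cells, which favours a larger change there, so the 12 and the 2 were not read further. Among all 320 calls of the same sign, 173 changed more in Empty-V cells. NRARP changed by -5.76 in Empty-V cells and the interval of its difference ran from -0.94 to 0.35. APCDD1 changed by -3.15 in miR-17-92 cells and by -1.75 in Empty-V cells (difference -1.40 ± 0.26, adjusted p = 0.182). Among the risers, ARID5B showed 2.63 against 4.90 in Empty-V cells (adjusted p of the difference 0.0568), CCR4 3.17 against 5.22 (adjusted p 0.0767) and TOX2 2.02 against 4.58 (adjusted p 0.0767). All 3 rose less in miR-17-92 cells, by a margin that missed the threshold.

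**Figure D3:**
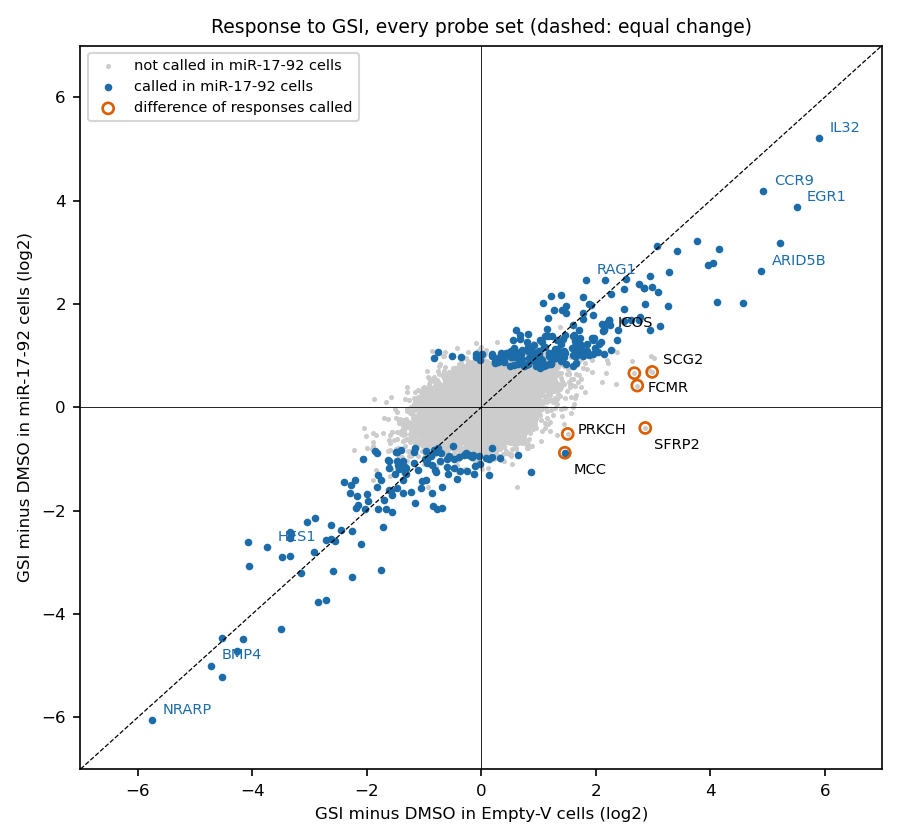
GSI minus DMSO in log2 for every probe set in Empty-V cells (horizontal axis) and in miR-17-92 cells (vertical axis), with the dashed line at equal change. Blue points are the 336 called in miR-17-92 cells, grey points the rest, and orange rings the 6 genes whose 2 responses differed at an adjusted p under 0.05, all of which lie below the dashed line.

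The difference between the 2 responses passed for 6 of 21448 probe sets (0.028%), and all 6 were lower in miR-17-92 cells. SFRP2, a secreted WNT antagonist, read 9.34 and 9.19 with DMSO and 8.93 and 8.80 with GSI in miR-17-92 cells, against 7.38 and 7.00 with DMSO and 10.02 and 10.09 with GSI in Empty-V cells. The change was -0.40 ± 0.18 in the former and 2.87 ± 0.18 in the latter, a difference of -3.27 ± 0.25 (adjusted p = 0.0067). The inducible costimulator gene ICOS read 11.04 and 11.14 against 11.72 and 11.78 in miR-17-92 cells, and 10.70 and 10.66 against 13.42 and 13.29 in Empty-V cells (difference -2.02 ± 0.22, adjusted p = 0.0296). In both genes the miR-17-92 cells had the higher DMSO pair and the lower GSI pair.

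PRKCH, a protein kinase C isoform, showed that order too. It read 10.87 and 11.09 against 10.39 and 10.54 in miR-17-92 cells and 9.07 and 9.22 against 10.74 and 10.57 in Empty-V cells (difference -2.03 ± 0.24, adjusted p = 0.0412). MCC, named for its mutation in colorectal cancers, was dim and was called in both vectors with opposite signs. It read 4.33 and 4.39 against 3.43 and 3.53 in miR-17-92 cells (-0.88 ± 0.17, adjusted p = 0.0363, and 0.103 with the block) and changed by 1.46 ± 0.17 in Empty-V cells. FCMR, an Fc receptor for IgM, changed by 0.42 ± 0.19 against 2.73 ± 0.19 in Empty-V cells, and SCG2, a secretogranin, by 0.69 ± 0.17 against 2.99 ± 0.17. In SCG2 the miR-17-92 arrays stayed below 4 throughout. With the set as a block the difference passed for SFRP2 (adjusted p = 0.0177), while MCC, SCG2, ICOS, FCMR and PRKCH stood at 0.112, 0.112, 0.124, 0.124 and 0.129. The count of 6 fell to between 0 and 2 when any single array was left out.

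**Figure D4:**
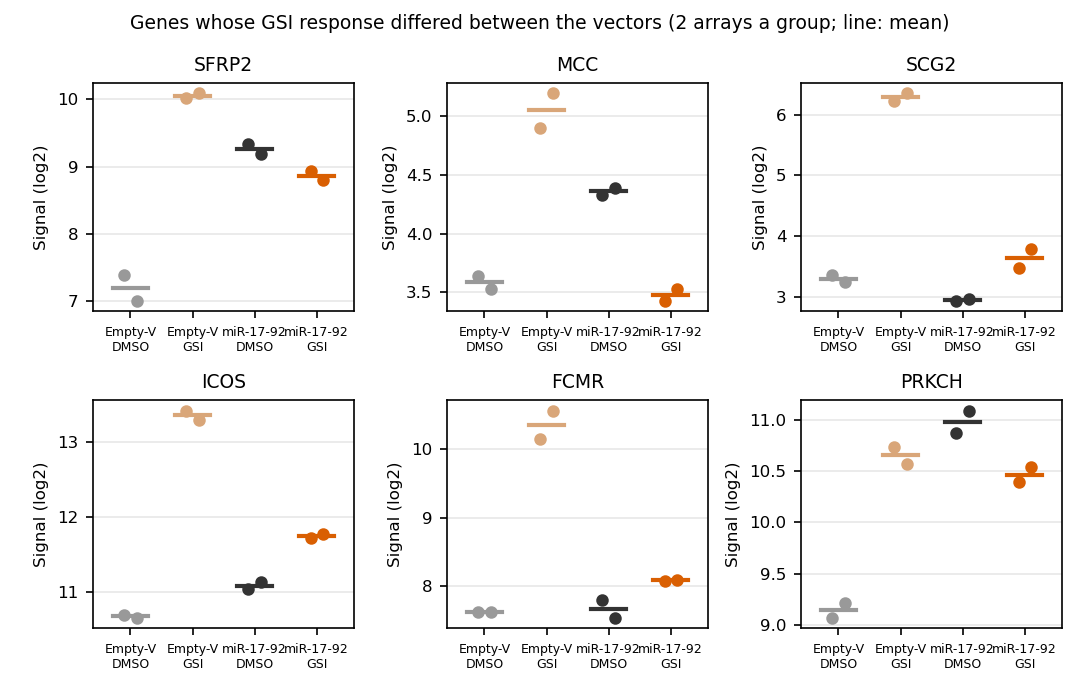
Deposited log2 signal of the 6 genes whose GSI response differed between the vectors, in the 2 arrays of each group (points, set 1 at left) with the group mean (line). Empty-V GSI arrays were the highest pair for SFRP2, MCC, SCG2, ICOS and FCMR, and for PRKCH the miR-17-92 DMSO arrays were.

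Of the 336 calls, 69 were not called in Empty-V cells, and the difference test passed for none of those 69, so none is shown to be particular to miR-17-92 cells. They include IRF9 (0.57 in Empty-V cells, adjusted p = 0.0652), BCL2L1 (0.29) and IGF1R (-0.16). In the other direction, 1334 probe sets were called in Empty-V cells and not in miR-17-92 cells, 1095 of them with the same sign in both, and the difference passed for 5. Calls were more frequent in Empty-V cells over all probe sets, with 3.66% called lower against 0.606% in miR-17-92 cells, and the list counts stand against those shares. Ribosome biogenesis genes were called lower 0 times in miR-17-92 cells and 17 times in Empty-V cells (medians -0.26 and -0.57), and mitochondrial ribosomal proteins 0 and 21 times (-0.12 and -0.65). DNA replication genes were called lower 0 and 17 times (-0.14 and -0.66), and nucleotide and polyamine synthesis genes 0 and 13 times (-0.30 and -0.61). The difference test passed for no member of these 4 lists. NOTCH1 targets were called lower 12 and 13 times (medians -0.95 and -0.87). Among T-cell maturation genes, 12 and 17 were called higher (0.96% and 3.8% of all probe sets), and the difference passed for ICOS.

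**Figure D5:**
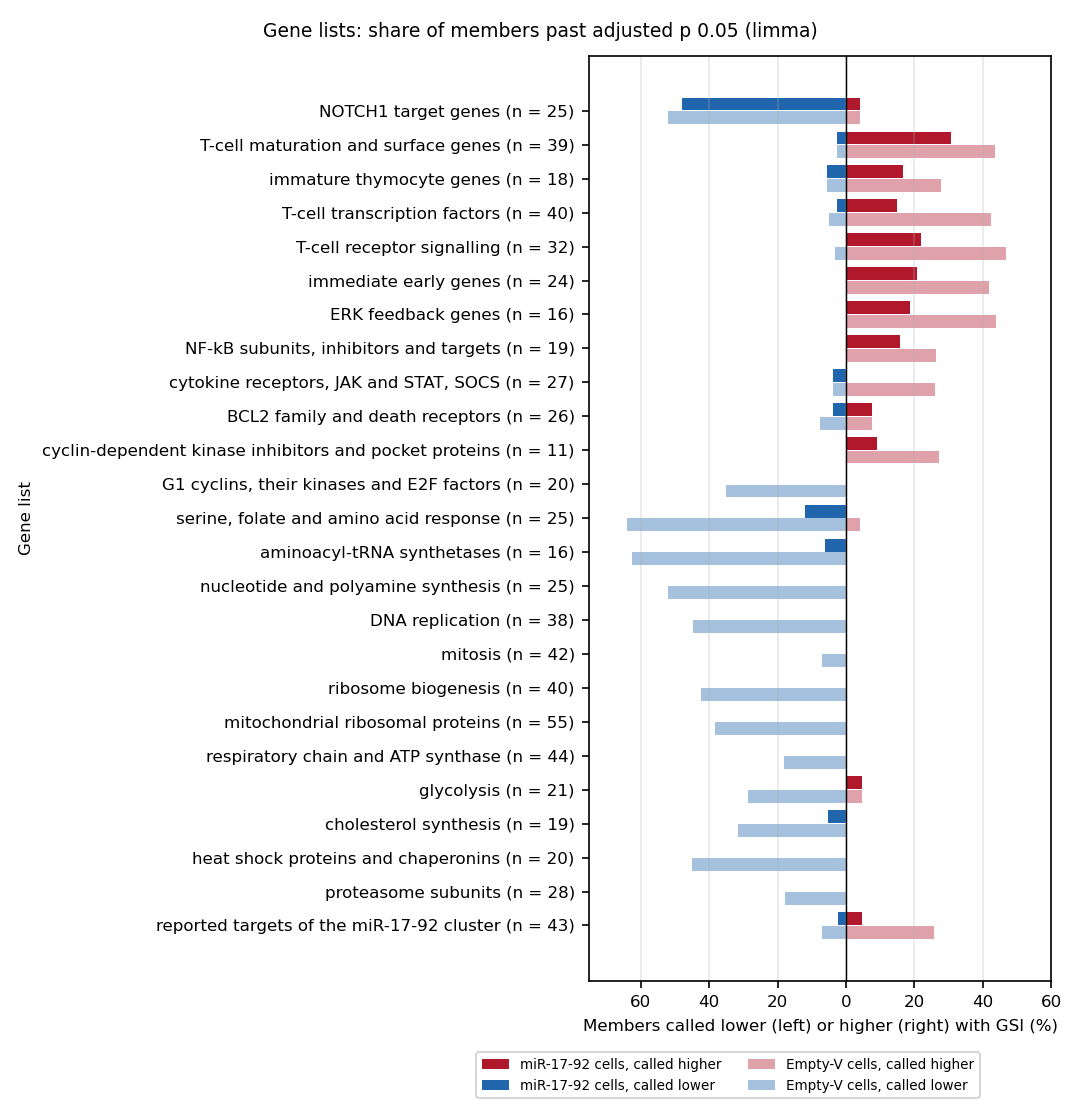
Share of the measured members of 25 gene lists that were called lower (blue, to the left) or higher (red, to the right) with GSI at an adjusted p under 0.05, in miR-17-92 cells (dark bars) and Empty-V cells (pale bars), as a percentage of the n beside each name. NOTCH1 targets had 12 of 25 called lower in miR-17-92 cells, where 0.606% of all probe sets were. Ribosome biogenesis, DNA replication and mitochondrial ribosomal proteins had none there, which says little at that share.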

How the data were processed

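RNA of 8 cultures was hybridised to Human Clariom S arrays. The deposited log2 values are gene-level SST-RMA signals that the authors computed in Transcriptome Analysis Console 4.0 (hg38 in the submitters' processing notes), so they were normalized together and summarised before deposit, and RMA can compress large changes. Groups came from the sample labels. limma 3.58.1 (R 4.3.3) was fitted to 4 group means over all 21448 probe sets, with Benjamini-Hochberg adjustment and a threshold of 0.05, and the fit was tested on simulated data. Gene names came from the platform annotation (3739 probe sets had none), and sequences from RefSeq. Named genes were the 15 largest called changes in each direction, every gene whose difference passed, up to 4 members of smallest p from each of 43 gene lists, and a set of NOTCH and growth regulators. Other called members of these lists were named to complete their counts, after their values were seen. Members and lists were chosen with earlier results of these data known. Replicates carry set numbers, which were assumed to mark the 2 biological experiments of the methods, although the labels do not state this. The set was therefore also tried as a block. Deviations of same-numbered arrays correlated at -0.24 to -0.19 in all 6 pairs of groups. With 2 arrays a group, precision is limited by their number. Alternatives were the block, a threshold of 0.1, leaving out dim probe sets, quantile normalization, an intensity trend, fits of the 4 arrays compared, and leaving out each array.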

Additional observations from a re-analysis of the deposited data

Results flagged for a closer look

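The difference of the GSI response between the vectors passed the test of the difference itself for 6 genes, each with a smaller or opposite change in miR-17-92 cells. The differences in log2 were -3.27 for SFRP2, -2.34 for MCC, -2.30 for SCG2, -2.02 for ICOS, -2.31 for FCMR and -2.03 for PRKCH. Each rests on 2 arrays a group, and no group was large enough to look for a sample that stands apart.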

How the results depend on the processing

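The number of probe sets called in miR-17-92 cells depended on the processing. Against 336 (206 higher, 130 lower), there were 178 (97 and 81) with the set as a replicate block, 177 (93 and 84) in a fit of the 4 miR-17-92 arrays alone, 623 (360 and 263) when adjusted p up to 0.1 were accepted, 582 (347 and 235) once dim probe sets were removed, which leaves fewer tests, and 721 (429 and 292) when the prior spread followed intensity and was fitted robustly. Leaving out 1 array gave 127 to 285 calls (69 to 169 higher, 58 to 116 lower): 127 without GSI of set 1, 160 without GSI of set 2, 136 without DMSO of set 1 and 143 without DMSO of set 2 of the miR-17-92 cells. In Empty-V cells the 1601 calls became 825 with the block, 2599 at 0.1, 2551 with the trend and 841 with 4 arrays, and ranged from 514 to 1310 when 1 array was left out, with 1015 and 553 without GSI of sets 1 and 2 and 597 and 514 without DMSO of sets 1 and 2. The 6 called differences became 1 with the block, 21 at 0.1, 14 without dim probe sets, 111 with the trend and 0 to 2 without 1 array: 0 without either miR-17-92 GSI array, without miR-17-92 DMSO of set 1 or without Empty-V GSI of set 2, 1 without miR-17-92 DMSO of set 2 or either Empty-V DMSO array, and 2 without Empty-V GSI of set 1. A block with the DMSO set numbers crossed, chosen after seeing the data, gave 342, 1659 and 1 calls. The share of probe sets with the same sign in both sets was 56.2%, 57.0% after quantile normalization and 61.4% without dim probe sets. The cause of these shifts was not tested.

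Of the 69 genes picked by the naming rule and called in miR-17-92 cells, 39 were tested under each alternative and called in each. Called genes named only to complete a list count, such as CD300A and SHQ1, and NUDT6 and OR52B2 are not among the 69. CCR4, DPP6, TOX2, MCC and SPRY1 were removed with the dim probe sets, and the first 3 kept the call in all others. None of the 69 changed direction where it was tested. Leaving out 1 miR-17-92 array ended 22 to 26 of the 69 calls: 24 without DMSO of set 1, 22 without DMSO of set 2, 26 without GSI of set 1 and 24 without GSI of set 2. Among lists not treated this way in the report, NF-kB genes went from 3 to 1 without GSI of either set or DMSO of set 1, serine, folate and amino acid genes from 3 to 1 without any 1, and the cell death list from 3 to 0 without any 1. The single calls of IL7R, IARS1, MVD, SLC2A3, TFRC and ID1 were lost without any 1, and that of IRF9 without set 1 of either treatment. Genes that were never called changed sign when 1 array was left out: HES5 (-0.10 to 0.09), NOTCH2 (-0.32 to 0.18), CTNNB1 (-0.16 to 0.21), GATA1 (-0.34 to 0.44), GATA2 (-0.44 to 0.01), CCNE1 (-0.25 to 0.32), FOXM1 (-0.01 to 0.05) and RELA (-0.23 to 0.04). CCNE1 stood at -0.02 after quantile normalization. The 2 arrays a group and dim signals limit which small changes can pass.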
